A study of Mus musculus with 9 samples.

Results

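Coagulation and complement proteins of the blood plasma are made mostly by the liver, and the genes that encode them were compared between mouse liver tumours and normal mouse liver. The members were 33 genes given by name: clotting factors, fibrinogen, proteins of the contact pathway, natural anticoagulants, fibrinolytic proteins and the lectin, classical, alternative and terminal parts of complement. A probe set of the deposited table carried the symbol of 31 of them, among 18193 genes tested. Cpb2 and C3 were not analysed here. Where a gene had several probe sets, the one brightest over the 9 arrays stood for it. All 31 lay above the TrpnX control, a bacterial sequence with no target in mouse RNA that read 3.69 to 4.36.

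The tumours were 5 hepatocellular carcinomas (HCCs) from mice whose genotype is listed as RbΔ/Δ; p130Δ/Δ; p107+/-, and the titles call them triple knockout (TKO). These mice had been given Ad-Cre, an adenovirus that delivers Cre recombinase, through the spleen, and the tumours were taken 4 months later. The comparison tissue was 4 livers of adult wild-type mice without tumours. Genotype, virus and tumour state thus differed together, and the sources used here do not give the promoter of Cre, the strain, the sex or exact ages. Whether each sample was its own animal is not in the labels, and the p-values measure only the spread among these samples. RNA was amplified in 2 rounds and hybridised to Affymetrix whole-genome mouse arrays, and values are log2 RMA expression values, on which 1 unit is a 2-fold difference.

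Clotting is a cascade in which each protease cuts the next zymogen, until thrombin cuts fibrinogen to fibrin. Several of these proteases carry glutamates modified in a vitamin K-dependent reaction, and plasmin later dissolves the clot. Complement is a second cascade, started by antibody (classical), by sugars on microbes (lectin) or spontaneously (alternative), and it ends in a pore made of terminal components. Hepatocytes secrete most of these proteins.

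Several facts of the whole series bear on these values. The tumour arrays expressed hepatocyte genes, though not all at the level of the livers. Alb, the albumin gene, lay at 15.42 to 15.55 in tumours and 15.21 to 15.49 in livers. Its 15.55 in tumour 5 was the highest value on any array. Of 11 measured hepatocyte markers 3 fell and 1 rose, and their mean level lay at 12.8 to 14.1 in tumours and 14.1 to 14.3 in livers. Pck1, G6pc and Apob fell, with log2 differences of -4.52, -2.71 and -0.61, and Ahsg rose by 0.40. Of the targeted genes, Rbl2, for p130, had means of 7.81 ± 0.64 (SD, n = 5) in tumours, against 9.80 ± 0.25 (SD, n = 4) in livers. Rb1 had means of 9.03 ± 0.27 in tumours and 7.98 ± 0.28 in livers, and Rbl1 (p107) lay at 4.63 to 4.82 in tumours and 4.23 to 5.83 in livers. The sources used here do not name the deleted exons, so these probe sets check the genotype only where they read a deleted part. The log2 ratio of 3' to 5' probe sets of the Actb control lay at 0.528 to 0.716 in tumours and 0.908 to 1.00 in livers (exact permutation test, two-sided, adjusted p = 0.0159). The same ratio of Gapdh overlapped and ran the other way, at -0.24 to -0.18 in tumours and -0.32 to -0.21 in livers (adjusted p = 0.0635, exact). The part of RNA length in the differences below was not tested. Xist, which female cells express, was low on 3 arrays, at 6.34 in tumour 1, 6.39 in tumour 2 and 6.66 in liver 4. On the remaining 6 arrays it lay at 12.7 to 13.6. Eif2s3y, a Y chromosome gene, lay at 9.38 in tumour 1, 9.16 in tumour 2 and 10.30 in liver 4. On the arrays of high Xist it lay at 3.55 to 4.32. Both groups therefore held arrays of low and high Xist. In bulk tissue, fewer cells of a type and less RNA per cell cannot be told apart.

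Of the 31 members, 13 fell in the tumours, 1 rose and 17 did not pass an adjusted p of 0.05 (limma over all 18193 genes, Benjamini-Hochberg). The share that fell, 41.9%, stood beside 17.4% of all genes tested, and the share that rose, 3.23%, stood beside 16.1%. At 2-fold or more 6 members fell and none rose, where 4.38% of all genes fell and 6.52% rose by that size. The median log2 difference of the members was -0.57, against -0.08 over all genes. The tumours lay below all livers for 10 members and above all livers for none, against 15.9% and 14.0% of all genes. Complement held 7 of its 15 measured members lower and 1 higher, with a median of -0.92. Clotting and fibrinolysis held 6 of 16 lower and none higher, with a median of -0.52.

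**Figure D1:**
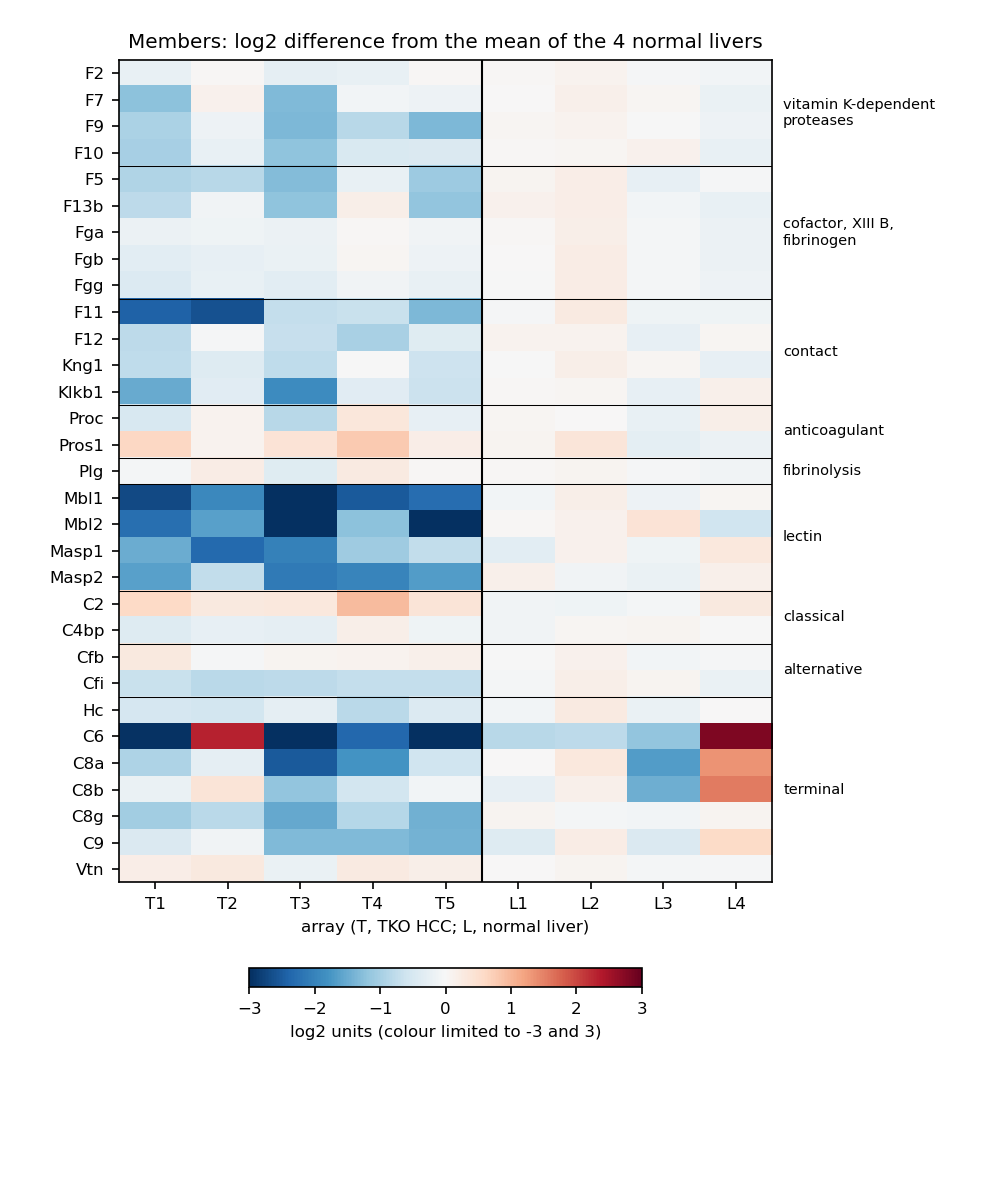
Each cell gives the log2 difference of 1 member (rows, grouped by role) on 1 array (columns; TKO HCCs left, normal livers right) from the mean of the 4 normal livers; colours stop at -3 and 3. The lectin rows are blue in all 5 tumours, the fibrinogen and Plg rows are near white, and the C6 row is dark red in tumour 2 and liver 4.

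These counts depended on how arrays were scaled. Housekeeping centring subtracted from each array the median level of 13 housekeeping genes, of which 7 rose and 1 fell as deposited. It shifted the median over all genes from -0.08 to 0.09. This left 6 members lower and none higher: Mbl1, Mbl2, Masp1, Masp2, F11 and C8g. The median log2 difference of the 13 genes was 0.40, yet this scaling moved tumour values up against livers. It therefore did not remove the typical housekeeping rise, and calls lost with it carry that limit. Centring on the 75th percentile shifted that median to -0.26 and gave 21 members lower and none higher. Over all genes, 3165 were lower and 2926 higher as deposited, 760 and 2201 with housekeeping centring, and 8040 and 2306 with the 75th percentile. Among the 14 called members, Mbl1, Mbl2, Masp1, Masp2 and C8g kept the call in all 19 other fits, which included leaving out each array in turn. The other 9 lost the call in at least 1 fit.

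**Figure D2:**
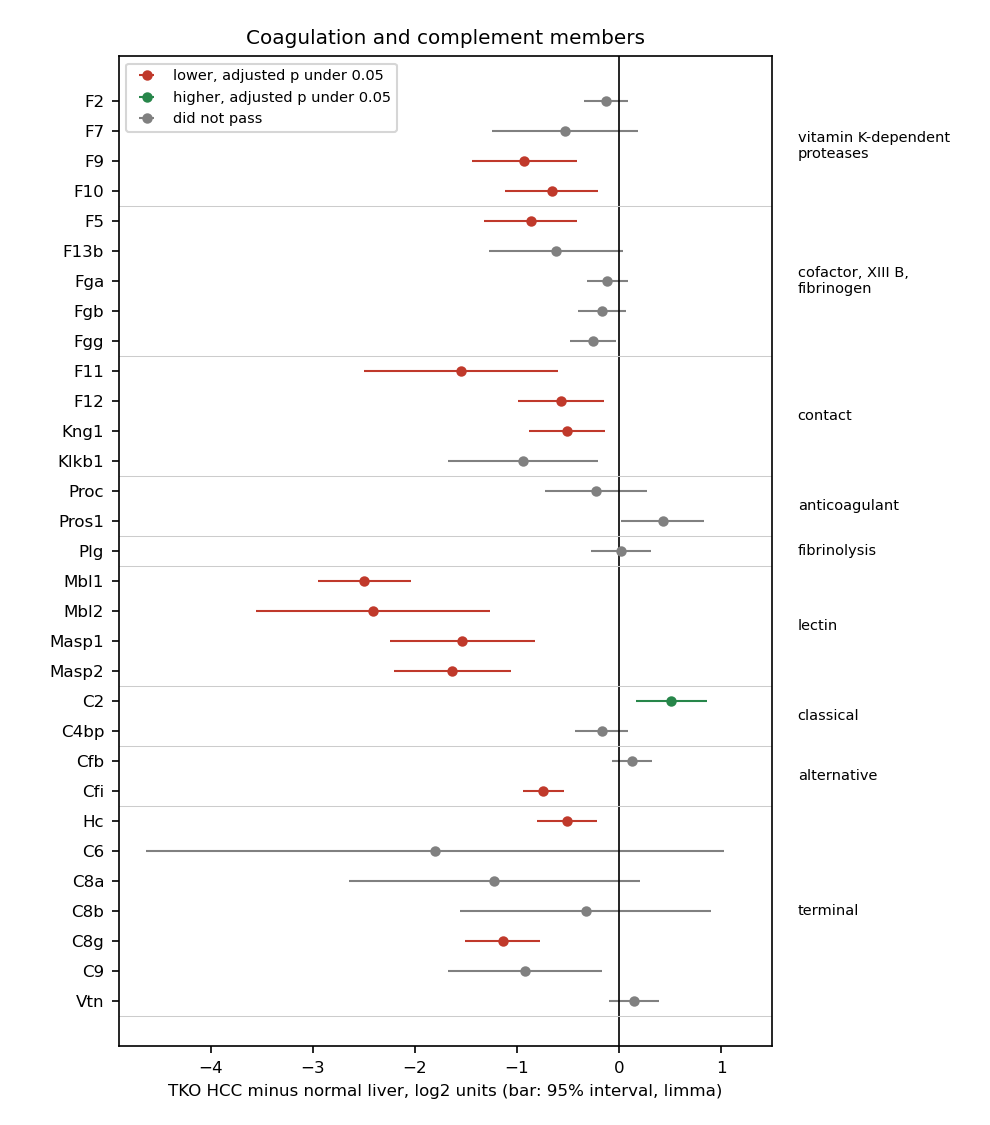
Points are log2 differences, TKO HCC minus normal liver, for the 31 measured members grouped by role, with 95% intervals from limma (n = 5 and 4). Mbl1 and Mbl2 lie furthest left, C2 alone passed on the right, and C6 has the widest interval.

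All 4 members of the lectin pathway fell, and each was lower in every tumour than in any liver. Mannose-binding lectins, encoded by Mbl1 and Mbl2 in mice, recognise sugars on microbes, and the proteases encoded by Masp1 and Masp2 ride on them and start the cascade. Mbl1 was 9.70, 10.48, 9.36, 9.89 and 10.11 in tumours 1 to 5, against 12.32, 12.57, 12.25 and 12.47 in livers 1 to 4. The highest tumour thus lay well under the lowest liver. This was a 5.64-fold fall (log2 -2.49, SE 0.20, limma adjusted p = 3.24e-05).

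Mbl2 was 11.32, 11.95, 10.51, 12.35 and 9.69 in tumours, against 13.62, 13.70, 14.00 and 12.98 in livers, a 5.32-fold fall (log2 -2.41, SE 0.51, adjusted p = 0.00646). Tumours spread far more than livers here, with SDs of 1.08 and 0.43, and tumours 2 and 4 came closest to the livers. Masp2 was 9.65, 10.54, 9.16, 9.31 and 9.61 in tumours, against 11.43, 11.19, 11.08 and 11.44 in livers, a 3.10-fold fall (log2 SE 0.25, adjusted p = 0.0014). A second Masp2 probe set, dimmer in both groups, fell by 2.28.

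Masp1 was 9.77, 8.93, 9.23, 10.19 and 10.53 in tumours, against 10.95, 11.39, 11.14 and 11.58 in livers, a 2.90-fold fall (log2 -1.53, SE 0.32, adjusted p = 0.00591). This gene had 5 probe sets and they did not move as one. Besides the one used, those with liver means of 9.88 and 9.48 fell, by 1.25 and 0.70 on the log2 scale. One with means of 6.32 in tumours and 6.78 in livers did not pass (log2 -0.46, adjusted p = 0.0504). The dimmest rose, with means of 6.41 in tumours and 5.53 in livers (log2 0.88, SE 0.14, adjusted p = 0.00172). The mean of the 5 probe sets gave -0.61 (adjusted p = 0.015), which passed but was under 2-fold. Masp1 is known to give several proteins by alternative splicing. Which transcripts each probe set reads was not examined.

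**Figure D3:**
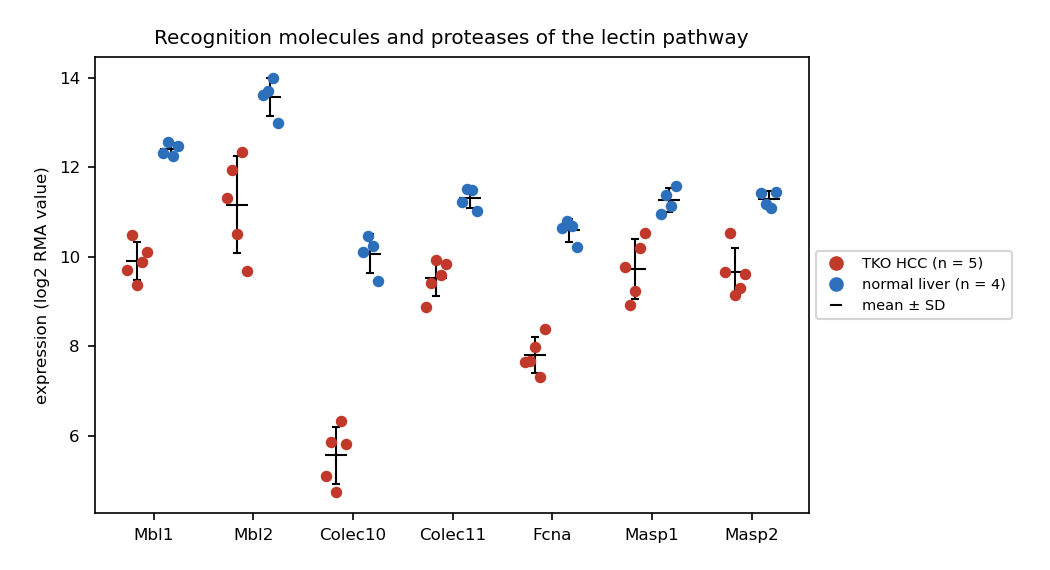
Points are arrays (y axis, log2 RMA value; TKO HCCs left and normal livers right within each gene), and bars give the mean ± SD. For all 7 genes, 4 members and 3 other genes of the lectin pathway, every tumour lies below every liver.

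Of 4 further recognition molecules of this pathway, on a list of pathway genes outside the members, Colec10, Colec11 and Fcna fell and Fcnb did not pass. Colec10, a collectin, had means of 5.57 ± 0.64 (SD, n = 5) in tumours, against 10.1 ± 0.44 (SD, n = 4) in livers, a log2 difference of -4.50 (SE 0.33, adjusted p = 1.68e-05). Fcna, the ficolin A gene, differed by -2.79 (SE 0.21) and Colec11, another collectin, by -1.78 (SE 0.21). Fcnb, the ficolin B gene, was dim, with means of 5.70 in tumours and 5.83 in livers (log2 -0.13, 95% interval -0.34 to 0.08, adjusted p = 0.305). Colec10 is known as a gene of hepatic stellate cells and Fcna as one of liver macrophages. Of 10 measured stellate and fibroblast markers 3 fell and 2 rose, with a mean level of 8.53 to 9.96 in tumours and 8.83 to 9.44 in livers. Lrat and Reln, defining genes of resting stellate cells, differed by -1.90 and -2.66, and Dcn, which also fell, by -1.88. The collagen genes Col1a1 and Col3a1 were those that rose, by 2.14 and 1.84. Of 9 Kupffer cell and macrophage markers 5 fell and none rose, with a mean level of 7.14 to 9.29 in tumours and 9.28 to 10.4 in livers. The Kupffer cell genes Clec4f and Timd4 differed by -3.51 and -2.90. The part of these cell types in the differences of Fcna and Colec10 was not tested.

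The upstream sequences of Mbl1 and Mbl2 are shown because these paralogues had the largest called differences among the members and share a stretch near their starts. Each is the 250 bases before the annotated start, 5′ to 3′, from RefSeq, and capitals mark the longest run the pair has in common.
Mbl1, GRCm38.p6 chr14:41151206-41151455, plus strand: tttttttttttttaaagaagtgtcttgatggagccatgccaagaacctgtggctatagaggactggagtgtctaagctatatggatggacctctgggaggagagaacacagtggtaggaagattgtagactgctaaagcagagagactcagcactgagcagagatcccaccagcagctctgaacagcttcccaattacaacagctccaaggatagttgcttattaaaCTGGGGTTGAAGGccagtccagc
Mbl2, GRCm38.p6 chr19:30232678-30232927, plus strand: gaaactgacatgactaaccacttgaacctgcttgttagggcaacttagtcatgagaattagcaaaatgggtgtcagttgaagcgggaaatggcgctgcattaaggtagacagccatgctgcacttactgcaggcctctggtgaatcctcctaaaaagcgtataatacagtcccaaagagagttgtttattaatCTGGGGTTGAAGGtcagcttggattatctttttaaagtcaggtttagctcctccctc
The shared run of 13 bases begins 23 bases before the Mbl1 start and 57 bases before the Mbl2 start. It stood, on either strand, in 3 of 32851 such windows of the RefSeq table. That count includes the windows of Mbl1 and Mbl2, from which the run was picked, so it is no test of the pair. None of the 5 motifs searched, described with fibrinogen, was found in either window.

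Of the proteins that lead from the classical and lectin pathways into the central steps, C2 was the only member that rose. C2 supplies the protease of their shared C3 convertase. It was 11.72, 11.41, 11.44, 12.07 and 11.51 in tumours, against 11.01, 10.99, 11.06 and 11.42 in livers. Tumour 2 lay just under liver 4, so the groups overlapped. The rise of 0.51 (SE 0.15, adjusted p = 0.0307) came from a probe set whose name ends in x_at and may cross-hybridise, and a C2 probe set without that ending rose by 1.11 (SE 0.18, adjusted p = 0.00154). The call was lost without tumour 1 (0.49) or liver 1, 2 or 3 (0.48, 0.47 and 0.49), and under both other scalings. C4bp, an inhibitor of that convertase, lay at 13.12 to 13.69 in tumours and 13.41 to 13.59 in livers (log2 -0.17, 95% interval -0.43 to 0.09).

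Cfb, the alternative pathway's counterpart of C2 and its neighbour on chromosome 17, did not pass. Its values were 13.36, 13.01, 13.14, 13.17 and 13.21 in tumours, against 13.05, 13.18, 12.98 and 13.01 in livers, which gave 0.12 on the log2 scale (95% interval from -0.07 to 0.32, adjusted p = 0.285). Whether C2 and Cfb differed from each other in their change was not tested. Cfi, the protease that inactivates C3b and C4b, was 13.73, 13.58, 13.60, 13.69 and 13.68 in tumours, against 14.34, 14.56, 14.49 and 14.20 in livers. The tumours were tightly grouped and all lay below the livers. The fall was 1.67-fold (log2 -0.74, SE 0.09, adjusted p = 0.000334), and it did not pass with arrays centred on housekeeping genes (log2 -0.57, adjusted p = 0.213).

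The terminal components split by their spread. Hc, which encodes C5, and C8g fell with little scatter, whereas C6, C8a, C8b and C9 varied widely within both groups and did not pass. Hc was 13.11, 13.07, 13.35, 12.81 and 13.21 in tumours, against 13.54, 13.89, 13.41 and 13.63 in livers, a fall of 0.51 (SE 0.13, adjusted p = 0.0158). All tumours lay below all livers, and the call was lost with housekeeping scaling (-0.33) and without the 3 arrays of low Xist (-0.49). C8g, the gamma chain of C8, was 12.59, 12.81, 12.10, 12.79 and 12.18 in tumours, against 13.71, 13.56, 13.54 and 13.71 in livers. That was a 2.20-fold fall (log2 -1.14, SE 0.16, adjusted p = 0.000901) with a gap between the groups.

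C6, which binds C5b to begin the pore, was 6.77, 12.05, 6.70, 7.38 and 6.73 in tumours, against 8.89, 8.94, 8.55 and 12.54 in livers. Tumour 2 and liver 4 stood more than 3 log2 units above the rest of their groups. With them the difference was -1.80 (SE 1.26, adjusted p = 0.287). Tumour 2 and liver 4 were arrays of low Xist, but tumour 1, also of low Xist, was among the low ones. Among the 6 arrays of high Xist, tumours averaged 6.94 and livers 8.79, and the difference of -1.85 passed (adjusted p = 0.00179). Without tumour 2 alone it was -2.83 (adjusted p = 0.0267), and without liver 4 alone it was -0.87 (adjusted p = 0.607).

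C9, the component that polymerises into the pore, was 12.46, 12.79, 11.56, 11.57 and 11.48 in tumours, against 12.51, 13.12, 12.46 and 13.47 in livers. Tumours 1 and 2 lay near the livers and the other 3 about 1 unit lower. The difference of -0.92 did not pass (SE 0.33, adjusted p = 0.0603), but it passed with the Xist level as a covariate (-1.02, adjusted p = 0.00171), without tumour 2 (-1.13, adjusted p = 0.0181) and among the arrays of high Xist alone (-1.16, adjusted p = 0.00596). Activity of the terminal pathway in serum is known to differ between male and female mice. The labels do not give the sex of these mice, and what sets C6 and C9 was not tested.

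C8a and C8b, neighbouring genes for the alpha and beta chains of C8, ranked the livers in the same order. C8a was 11.36, 12.02, 9.78, 10.51 and 11.70 in tumours, against 12.30, 12.61, 10.62 and 13.64 in livers. C8b was 11.04, 11.63, 10.07, 10.69 and 11.17 in tumours, against 10.99, 11.41, 9.78 and 12.80 in livers. In both genes liver 3 was the lowest liver, liver 4 the highest and tumour 3 the lowest tumour. The differences were -1.22 (95% interval -2.65 to 0.21) and -0.33 (-1.56 to 0.91), and that of C8a passed without liver 3 (-1.78, adjusted p = 0.044). Without liver 4 they were -0.77 and 0.19, so the C8b value changed sign. Vtn, the gene of vitronectin, which keeps the pore out of membranes, lay at 14.33 to 14.83 in tumours and 14.48 to 14.62 in livers (log2 0.14, adjusted p = 0.326), and passed without tumour 3 (0.23, adjusted p = 0.0499).

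**Figure D4:**
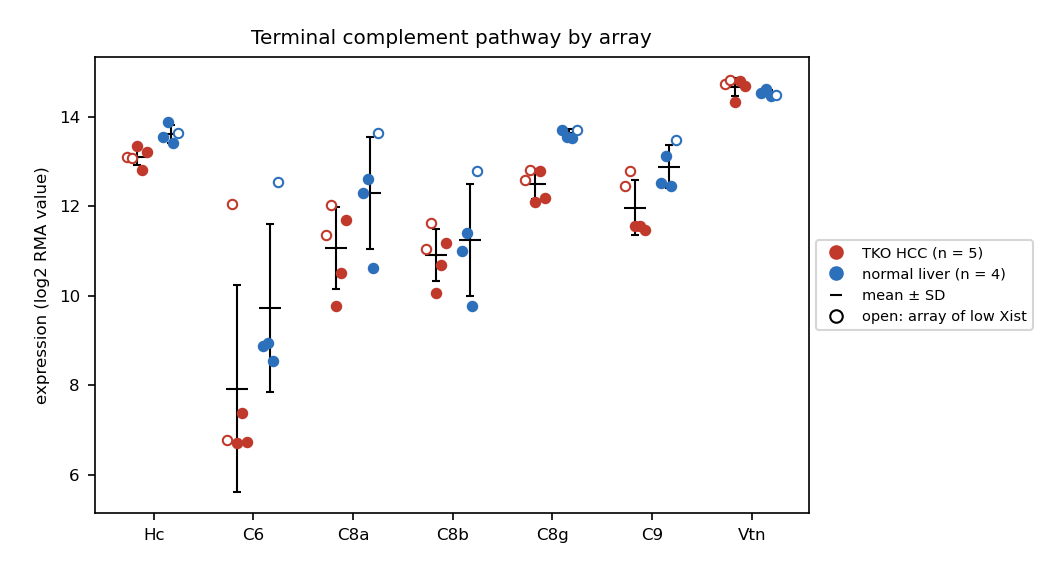
Points are arrays (y axis, log2 RMA value; TKO HCCs left, normal livers right within each gene), bars give the mean ± SD, and open points mark the 3 arrays of low Xist. C8g and Hc separate the groups, and the open points of tumour 2 and liver 4 stand far above the other C6 values.

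Among the vitamin K-dependent proteases, F9 and F10 fell and F2 and F7 did not pass. F9 encodes factor IX, which is missing in haemophilia B. It was 11.80, 12.58, 11.40, 11.93 and 11.39 in tumours, against 12.81, 12.85, 12.74 and 12.59 in livers, a 1.90-fold fall (log2 -0.93, SE 0.23, adjusted p = 0.0134). All tumours lay under the livers, tumour 2 by the least. The call of F9 was lost with housekeeping scaling (-0.75).

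F10, the factor X gene, was 12.33, 13.10, 12.12, 12.87 and 12.88 in tumours, against 13.34, 13.38, 13.46 and 13.10 in livers, a fall of 0.66 (SE 0.20, adjusted p = 0.0324). Tumour 2 and liver 4 touched, and the call was lost without tumour 1 (-0.58) or liver 1, 2 or 3 (-0.65, -0.64 and -0.62), and with the mean of its 3 probe sets (-0.75). Housekeeping scaling also lost the call of F10 (-0.49). F7, its direct neighbour on chromosome 8, encodes the protease that starts clotting with tissue factor. It was 10.62, 10.55, 11.78 and 11.71 in tumours 1, 3, 4 and 5, against 11.88, 12.02, 11.92 and 11.66 in livers, and tumour 2 lay just under the highest liver. Tumours 1 and 3 stood more than 1 unit under the livers and the other 3 among them (log2 -0.53, 95% interval -1.25 to 0.18). In F10 too, tumours 1 and 3 were the lowest. F2, the prothrombin gene, lay at 13.82 to 14.13 in tumours and 13.99 to 14.20 in livers, a difference of -0.13 (95% interval -0.34 to 0.09).

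The F9 window is shown because its match lies close to the start, with capitals for the C/EBP motif TTGCNNAA that begins 24 bases before it.
F9, GRCm38.p6 chrX:59999214-59999463, plus strand: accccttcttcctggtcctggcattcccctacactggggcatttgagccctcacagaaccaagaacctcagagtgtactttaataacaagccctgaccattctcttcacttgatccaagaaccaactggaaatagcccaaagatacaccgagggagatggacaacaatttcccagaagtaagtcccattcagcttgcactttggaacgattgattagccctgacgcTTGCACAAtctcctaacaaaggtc

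F5, F13b and the 3 fibrinogen genes form the end of the cascade. F5 encodes factor V, the cofactor that speeds thrombin formation. It was 11.80, 11.88, 11.42, 12.50 and 11.63 in tumours, against 12.80, 12.92, 12.46 and 12.67 in livers, a fall of 0.87 (SE 0.20, adjusted p = 0.0106), and only tumour 4 reached the lowest liver. Its other probe set fell by 0.75. The F5 call was lost with housekeeping scaling (-0.69) and without the 3 arrays of low Xist (-0.88, adjusted p = 0.0696). F13b, the carrier subunit of the factor that cross-links fibrin, was 12.11, 12.77, 11.69, 13.07 and 11.72 in tumours, against 13.02, 13.08, 12.80 and 12.66 in livers (log2 -0.62, 95% interval -1.28 to 0.04), and its difference passed without tumour 4 (-0.82, adjusted p = 0.0323).

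Fibrinogen is built from chains encoded by Fga, Fgb and Fgg, which lie side by side on chromosome 3, and none of them passed. Fga was 14.44, 14.48, 14.44, 14.65 and 14.51 in tumours, against 14.66, 14.80, 14.56 and 14.46 in livers (log2 -0.12, 95% interval -0.32 to 0.08). Fgb had means of 14.73 ± 0.14 (SD, n = 5) in tumours, against 14.90 ± 0.16 (SD, n = 4) in livers (log2 -0.17, interval -0.40 to 0.07). Fgg had means of 14.67 ± 0.11 in tumours and 14.92 ± 0.16 in livers (log2 -0.26, interval -0.48 to -0.03, adjusted p = 0.0725). The intervals of all 3 exclude a 2-fold fall on this scale. With arrays centred on the 75th percentile all 3 passed as lower, at -0.30, -0.35 and -0.44. The highest value on any array was 15.5. The 8 members whose liver mean lay within 1.5 units of it had differences from -0.74 to 0.14, and the other 23 from -2.49 to 0.51, and the part of signal saturation was not tested.

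Windows of 250 bases before the start were searched on both strands for 5 motifs. These were the HNF1 motif GTTAAT, the HNF4 core AAAGTCC, the C/EBP motif TTGCNNAA, the forkhead motif TGTTTAC and the TATA box TATAAA, whose letters can overlap. Such windows were in the table for 24 measured members. GTTAAT stood in 8 of the 24 (33.3%), against 6.43% of all 32851 windows, and TTGCNNAA in 6 (25%), against 9.56%. AAAGTCC stood in 1 member window (3.58% of all), TGTTTAC in 2 (3.17% of all) and TATAAA in 3 (12.4% of all). Of the 8 members with GTTAAT, 1 was among the 10 that fell, Hc, and 7 were among the 14 others. Fga and Fgb are shown since both hold the HNF1 and C/EBP motifs, in capitals, and because fibrinogen genes are known targets of these factors in human cells.
Fga, GRCm38.p6 chr3:83025903-83026152, plus strand: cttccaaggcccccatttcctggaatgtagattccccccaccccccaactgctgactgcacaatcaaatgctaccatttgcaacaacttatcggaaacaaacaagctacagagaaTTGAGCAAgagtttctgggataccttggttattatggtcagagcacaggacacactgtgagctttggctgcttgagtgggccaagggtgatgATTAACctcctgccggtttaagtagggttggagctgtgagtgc
Fgb, GRCm38.p6 chr3:83049864-83050113, minus strand: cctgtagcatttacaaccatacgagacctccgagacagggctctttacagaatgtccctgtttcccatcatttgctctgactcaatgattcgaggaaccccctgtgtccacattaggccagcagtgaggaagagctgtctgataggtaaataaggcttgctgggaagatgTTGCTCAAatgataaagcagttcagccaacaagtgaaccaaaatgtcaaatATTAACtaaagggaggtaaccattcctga
The HNF1 match begins 43 bases before the Fga start and 29 bases before the Fgb start. Of 17 measured regulators of hepatocyte genes, 2 rose and 1 fell: Foxa1 and Cebpb by 0.73 and 0.46, and the cytokine receptor gene Il6st by 1.55. Hnf4a had means of 12.70 ± 0.24 (SD, n = 5) in tumours, against 12.50 ± 0.30 (SD, n = 4) in livers and did not pass. A match is a stretch of letters and does not show that a factor bound there.

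The contact pathway, which starts clotting on charged surfaces, had 3 of 4 members lower. F11, the factor XI gene, was 9.13, 8.96, 10.86, 10.90 and 10.22 in tumours, against 11.53, 11.83, 11.43 and 11.44 in livers. Tumours 1 and 2 were lowest and all 5 lay under the livers. The fall was 2.93-fold (log2 -1.55, SE 0.42, adjusted p = 0.0203), and it missed the threshold without liver 1 (-1.56, adjusted p = 0.0501) or liver 2 (-1.46, adjusted p = 0.0553). Tumours 1 and 2 were arrays of low Xist. The difference was -2.40 among the 3 arrays of low Xist and -0.94 among the 6 of high Xist, where it passed (adjusted p = 0.0198) but was under 2-fold.

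Klkb1, the plasma prekallikrein gene and the paralogue next to F11 on chromosome 8, was 11.08, 12.24, 10.70, 12.24 and 11.94 in tumours, against 12.62, 12.63, 12.34 and 12.74 in livers. It too lay below all livers in every tumour, but its lowest tumours were 1 and 3, and the difference of -0.94 just missed the threshold (SE 0.33, adjusted p = 0.0518). It passed in 6 other fits, among them without tumour 2 (-1.09) or tumour 4 (-1.09). F12, whose product sets off the contact pathway, was 11.46, 12.23, 11.57, 11.28 and 11.88 in tumours, against 12.35, 12.35, 11.99 and 12.31 in livers, a fall of 0.57 (SE 0.19, adjusted p = 0.044). Tumour 2 lay above liver 3, so the groups overlapped. That call was lost when any array other than tumour 2 or liver 3 was left out, with values from -0.47 to -0.62. Housekeeping scaling lost it too (-0.39).

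Kng1, the kininogen gene from which bradykinin is cut, was 13.90, 14.28, 13.89, 14.64 and 14.05 in tumours, against 14.66, 14.84, 14.73 and 14.42 in livers, a fall of 0.51 (SE 0.17, adjusted p = 0.0411). Its second probe set had means of 13.74 in tumours and 13.75 in livers and differed by -0.01 (95% interval -0.43 to 0.41). The call of the first was lost with the mean of both (-0.26) and without tumour 1, 3 or 5 (-0.45, -0.44 and -0.48) or liver 1, 2 or 3 (-0.51, -0.45 and -0.49). It was also lost with housekeeping scaling (-0.33), with replicate number as a block (-0.48) and without the arrays of low Xist (-0.55). The paired neighbours F11 and Klkb1 are shown with the forkhead and C/EBP motifs in capitals, and for Klkb1 also a TATA box match.
F11, GRCm38.p6 chr8:45262032-45262281, minus strand: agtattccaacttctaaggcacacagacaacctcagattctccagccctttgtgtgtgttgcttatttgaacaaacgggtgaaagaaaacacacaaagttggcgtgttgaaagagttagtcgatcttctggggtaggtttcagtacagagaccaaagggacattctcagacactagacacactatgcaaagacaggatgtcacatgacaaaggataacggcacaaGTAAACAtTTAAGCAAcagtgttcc
Klkb1, GRCm38.p6 chr8:45294836-45295085, minus strand: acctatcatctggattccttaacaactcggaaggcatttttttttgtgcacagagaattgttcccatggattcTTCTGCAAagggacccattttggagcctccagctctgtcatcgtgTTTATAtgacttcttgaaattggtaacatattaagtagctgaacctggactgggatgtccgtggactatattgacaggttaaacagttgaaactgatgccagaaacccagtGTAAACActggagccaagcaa
The forkhead match begins 25 bases before the F11 start and 21 bases before the Klkb1 start. These were the only member windows that held TGTTTAC.

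**Figure D5:**
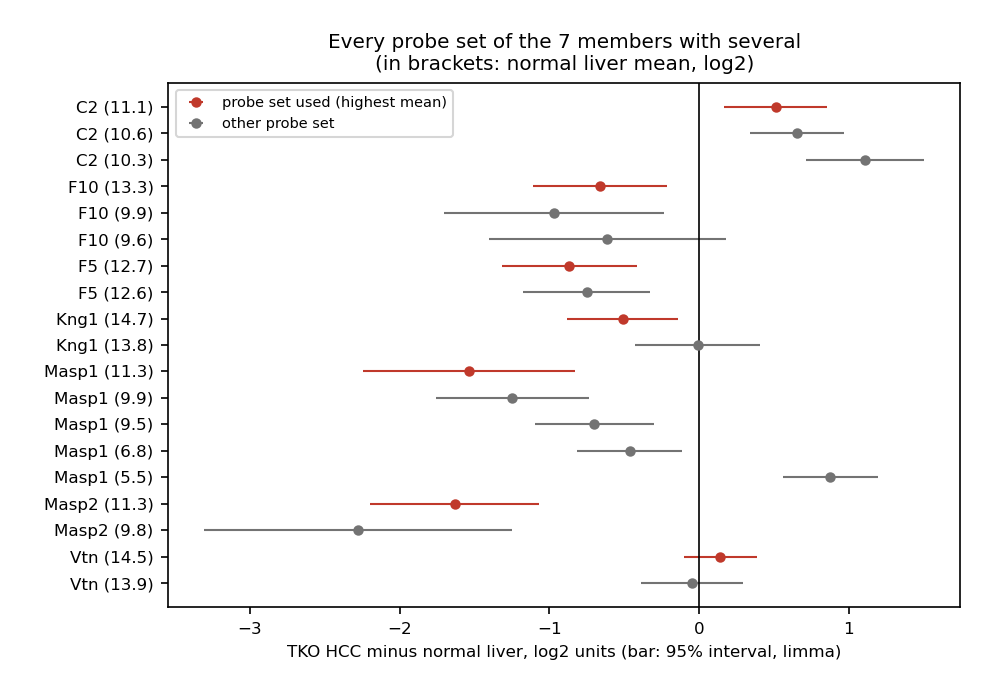
Points are log2 differences, TKO HCC minus normal liver, with 95% intervals from limma fitted on 34945 single probe sets, for every probe set of the 7 members that have several; brackets give the mean in normal livers. The probe sets of C2, F5 and Masp2 point one way, Kng1 has one at -0.01, and the dimmest Masp1 probe set points opposite to the other 4.

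Neither anticoagulant member nor plasminogen passed. Proc, which encodes protein C, was 12.82, 13.41, 12.48, 13.64 and 13.05 in tumours, against 13.36, 13.31, 13.07 and 13.47 in livers (log2 -0.23, 95% interval -0.72 to 0.27). Pros1, its cofactor protein S, was 10.68, 10.16, 10.46, 10.85 and 10.26 in tumours, against 10.15, 10.43, 9.75 and 9.89 in livers (log2 0.43, 95% interval 0.02 to 0.83, adjusted p = 0.096). Plg, the zymogen of plasmin, was 14.49, 14.77, 14.18, 14.81 and 14.58 in tumours, against 14.59, 14.63, 14.51 and 14.45 in livers (log2 0.02, 95% interval -0.27 to 0.31). Tumours surrounded the livers on both sides for Plg and Proc, with tumour 3 lowest and tumour 4 highest.

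Tumours differed in how many members were low. Tumour 3 had 27 of the 31 members below all 4 livers, tumour 1 had 24, tumour 5 had 20, tumour 4 had 16 and tumour 2 had 15. For comparison, 36.7% to 40.5% of all genes lay below all livers in a tumour. Single livers also reached such counts. Set against the other 3 livers, liver 3 had 16 of the 31 members below them all and liver 4 had 12. Liver 1 had 2 and liver 2 had 1, and the share of all genes was 22.8% to 27.4%. The counts of tumours 2 and 4 were thus no larger than that of liver 3. The median member stood at -0.83 from the liver mean in tumour 3 and -0.76 in tumour 1, but at -0.34 in tumour 4 and -0.22 in tumour 2. The median SD of a member was 0.41 among tumours and 0.17 among livers, and over all genes it was 0.19 and 0.16. The SD was larger among tumours for 23 of the 31 members, and for 58.0% of all genes. All 14 called members kept their sign both in the 6 arrays of high Xist and in the 3 of low Xist, a set of 2 tumours and 1 liver that allows no test.

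Beyond the members, 61 measured genes of clotting, fibrinolysis and complement were listed, of which 18 fell, 3 rose and 40 did not pass. Their shares, 29.5% lower and 4.92% higher, stand beside the 17.4% and 16.1% of all genes given above, and their median was -0.18. Of 25 other clotting genes 6 fell and none rose. F8, the factor VIII gene, which endothelial cells are known to make, lay at 5.60 to 7.46 in tumours and 8.68 to 9.08 in livers (log2 -2.40, SE 0.35, adjusted p = 0.00108). Of 9 sinusoidal endothelial markers 5 also fell, among them Stab2 (log2 -1.60) and Clec4g (log2 -4.08). The other 4, Stab1, Lyve1, Eng and Pecam1, did not pass, at -0.18, -0.37, -0.29 and 0.40. The mean level of the 9 markers lay at 7.21 to 8.76 in tumours and 9.06 to 9.66 in livers. The part of endothelial cells in the F8 difference was not tested. Proz, another vitamin K-dependent protein, fell by 1.33, Serping1, the inhibitor of C1 and kallikrein, by 1.05, Tfpi2 by 1.03 and the fibrinogen-like gene Fgl1, also an acute phase gene, by 2.04. Vkorc1, which recycles vitamin K, fell by 0.85, whereas Ggcx, the carboxylase that uses it, lay at 8.74 to 9.85 in tumours and 9.39 to 9.77 in livers.

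Of these lists fibrinolysis alone held rises, with 3 of 9 genes higher and 2 lower. The lower ones were Plau, the urokinase gene (log2 -0.39, adjusted p = 0.0192), and Serpinb2 (log2 -0.26). Serpinb2 had means of 3.75 in tumours and 4.01 in livers, within the range of the TrpnX control. Anxa2, a cell surface receptor for plasminogen and its activator, lay at 10.25 to 13.48 in tumours and 9.16 to 9.97 in livers, a rise of 2.57 (SE 0.57, adjusted p = 0.00815). Serpinf2, the plasmin inhibitor, rose by 0.56 (adjusted p = 0.0163) and Plaur, the urokinase receptor gene, by 0.94 (adjusted p = 0.0318). Plat, the tissue plasminogen activator gene, had means of 7.43 ± 1.16 (SD, n = 5) in tumours, against 6.07 ± 0.15 (SD, n = 4) in livers and did not pass (log2 1.36, adjusted p = 0.0707).

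In complement, 10 of 27 other genes fell and none rose. Besides the lectins, these included Cd55 (log2 -2.19, SE 0.37, adjusted p = 0.0022), Cd59a (log2 -1.72, SE 0.34, adjusted p = 0.00493) and Cd46 (log2 -0.45), genes of membrane-bound complement regulators. Cr1l and Cd55b, which also encode such regulators, did not pass, at -0.31 (adjusted p = 0.0765) and -0.09 (adjusted p = 0.387). Cd55b had means of 3.48 in tumours and 3.57 in livers, below the range of the TrpnX control, so its value is no measure of change. Cfhr3, a factor H-related gene, fell by 1.70. Vsig4, a complement receptor that is itself 1 of the Kupffer cell markers above, fell by 3.85. The C1q subunit genes C1qa, C1qb and C1qc, made by macrophages, differed by 0.08, 0.35 and 0.23 and did not pass, with SEs of 0.46, 0.53 and 0.49.

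Several complement genes are acute phase genes, so a list of 18 such genes was read beside them. In it 6 fell and 2 rose. Saa1 lay at 6.21 to 9.07 in tumours and 10.69 to 13.96 in livers (log2 -4.58, SE 0.72, adjusted p = 0.00155), and Saa2 differed by -3.81. Lcn2 rose by 3.40 (adjusted p = 0.0277) and Cp, the ceruloplasmin gene, by 0.49. Hp and Hpx, for haptoglobin and hemopexin, did not pass, at 0.14 and -0.08. Livers spread widely for Saa1, as for Lcn2, which lay at 12.33 to 14.27 in tumours and 6.85 to 12.60 in livers.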

How the data were processed

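RNA of 5 TKO HCCs and 4 normal livers, grouped by title, was measured on 1 array each. The authors deposited log2 values for 45101 probe sets; the submitters' processing notes name RMA, with no settings given in the sources used here. Array medians were 6.22 to 6.27, every deposited column was used, and arrays give no read depth, so their number limits the precision. Trizol extraction preceded RiboAmp amplification, which can shorten transcripts, per the labels' protocols.

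Probe sets naming 1 gene in the platform annotation (34945) were kept, and the brightest over all arrays was taken per gene. All 31 measured members matched RefSeq genes of GRCm38.p6 by symbol, but upstream windows were given for only 24 of them. Groups were compared with limma 3.58.1 (lmFit, eBayes, two-sided, no covariates) in R 4.3.3 over 18193 genes, with Benjamini-Hochberg adjustment and a threshold of 0.05. Adjusted p-values come from this fit, except those given with a named alternative, which come from limma under that alternative, those of single probe sets (the same test over 34945 probe sets) and those of the RNA controls (exact permutation tests). The test was tested on simulated data. Tables and plots used Python 3.11.15, pandas 2.3.3 and matplotlib 3.10.9. No pair of arrays was close enough to be a duplicate (smallest root mean square difference 0.295). Motifs were matched as exact letters.

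The members and lists were chosen with earlier results of these data known. The rule for named genes took all members and, of the other pathway genes, those called at 2-fold or more. Vkorc1, Ggcx, Serpinf2, Plaur, Plat, Plau, Serpinb2, Cd46, Cr1l, Cd55b, Fcnb and the C1q genes were named after their values were seen. So were the examples from the marker, acute phase and regulator lists.

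Alternatives were the mean of probe sets, probe sets not ending in x_at or s_at, leaving out dim genes, 2 other scalings, trended robust eBayes, array weights, a replicate block, the Xist level, leaving out arrays of Xist under 9, each array in turn, and a 2-fold minimum.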

Additional observations from a re-analysis of the deposited data

Results flagged for a closer look

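Among the 62 groups of member values examined, 2 per member, 4 held an array far from the rest of its group, where chance gives about 3.1. For C6, tumour 2 stood at 12.05 while the other tumours lay between 6.70 and 7.38, and liver 4 at 12.54 while the other livers lay between 8.55 and 8.94. These arrays were of low Xist, as was tumour 1, whose C6 was 6.77. For F12, liver 3 was low at 11.99, with the other livers between 12.31 and 12.35. For Vtn, tumour 3 was low at 14.33, with the other tumours between 14.70 and 14.83, and without it the Vtn difference passed at 0.23 (limma adjusted p = 0.0499).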

How the results depend on the processing

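With the values as deposited, 13 members were lower and 1 higher. Centring on the median level of the housekeeping genes gave 6 and 0, centring on the 75th percentile 21 and 0, and a 2-fold minimum 6 and 0. Of the other pathway genes, 18 were lower and 3 higher. These became 10 and 5 with housekeeping centring and 30 lower with the 75th percentile. The higher count was 5 with Xist as a covariate, 6 with array weights, 6 without the arrays of low Xist and 1 with a 2-fold minimum. Leaving out 1 array gave 9 to 16 members lower (9 without liver 1 or liver 2, 16 without tumour 2), 0 to 2 higher (2 without tumour 3, 0 without tumour 1 or liver 1, 2 or 3) and a median of -0.70 to -0.51. It gave 16 to 19 other pathway genes lower and 2 to 5 higher (5 without tumour 3). The titles give both groups replicate numbers, but arrays of the same number did not deviate together (r of -0.13, -0.07, 0.18 and -0.12). A replicate block, in which tumour 5 has no partner and adds nothing to the difference, gave 8 members lower and 1 other pathway gene higher. F10, F11, F12, Kng1 and Hc lost their calls in that fit. The calls lost or gained for single members without 1 array are given with the genes. The causes of these shifts were not tested, and fits without an array also have fewer samples. No called member changed direction in any of these fits. Whether signal near the top of the scale compressed the differences of fibrinogen, Plg and Vtn was not tested.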
